A study of Drosophila melanogaster with 6 samples.

Results

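The Antennapedia complex is the cluster of homeotic (Hox) genes of Drosophila melanogaster that patterns the head and the anterior thorax. It was taken here as the stretch of chromosome arm 3R from 2480001 to 2830000 on genome build dm3, which runs from lab at its low end to Antp at its high end and is 350 kb long. Every Cmi peak that overlapped this stretch by at least 1 bp was a member, which gave 115 peaks of the 37144 in 4 deposited lists. The embryo list held 78 of them, the larva list 6, the prepupa list 26 and the S2 list 5. The outermost embryonic peak, from 2829915 to 2830385, crosses the Antp boundary, and the other 77 embryonic peaks lie wholly inside.

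The lists come from chromatin immunoprecipitation and sequencing with an antiserum raised to residues 647 to 1069 of Cmi (also named Lpt). ChIP and input libraries, 1 of each, were made from whole larvae of the third instar at the wandering stage, from whole white prepupae and from S2 cells, a cultured line of embryonic origin. The labels give all 6 libraries the genotype Y cn bw sp, the S2 libraries included. The embryo list was derived from data that had been published before, and the labels give neither a genotype nor an age for it. The larva, prepupa and S2 lists rest on 1 ChIP library each, and the number behind the embryo list is not given in the sources used here. No difference between stages could therefore be set against a spread between animals or cultures, and none was tested. Depth is unknown, since the lists hold positions alone. Where a list has no peak, Cmi may still have been bound below the threshold of the caller. In whole animals, less binding per cell and binding in fewer cells cannot be told apart.

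Hox genes encode homeodomain transcription factors that give each body segment its identity. In Drosophila their expression is set up in the early embryo by transient regulators and is then kept on or off by the opposing Trithorax and Polycomb group proteins, through enhancers and maintenance elements spread over long stretches between the genes. Cmi contains PHD fingers and corresponds to the amino-terminal part of mammalian KMT2C and KMT2D. It works in one complex with the methyltransferase Trr, which places monomethylation of histone H3 lysine 4 at enhancers.

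The gene order along the complex is known, but the gene table used here is built on Release 6 and not on dm3, so single peaks were not assigned to single genes. In that table lab, needed for head and midgut development, comes first. Between lab and pb, which specifies adult mouthparts, lie the cuticle protein gene Edg84A and 7 related genes of the Ccp84 group. Next come the early patterning genes zen2, zen and bcd, with the cell adhesion gene Ama, and the microRNA gene mir-993. Dfd, which specifies the mandibular and maxillary segments, is followed by mir-10 and by Scr, the Hox gene of the labial and prothoracic segments. The pair-rule gene ftz lies between Scr and Antp, and Antp, the Hox gene of the thorax, ends the row. From lab to Antp the table lists 43 genes, 19 of them protein-coding. Positions below are given as distance from the lab end.

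**Figure D1:**
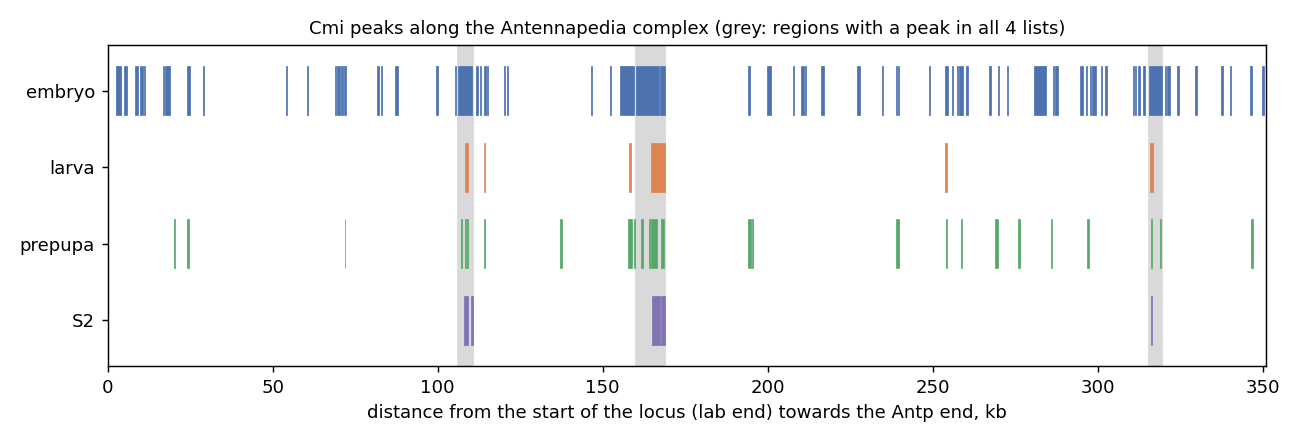
Position of every Cmi peak (coloured blocks, drawn at their width) in the 4 lists, along the 350 kb from the lab end (left) to the Antp end (right). Grey bands mark the 3 regions with a peak in all 4 lists. Embryonic peaks are spread over the whole locus, while the 6 larval and 5 S2 peaks begin 108 kb from the lab end.

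The locus was among the richer stretches of 3R in the embryo list and among the poorest in the larva and S2 lists. It was compared with the 78 other windows of 350 kb that tile 3R in phase with it. The 78 embryonic peaks of the locus exceeded the count in 69 of these windows, whose median was 48 and whose range was 4 to 97. The 6 larval peaks were fewer than in 71 of the 78 windows (median 18, range 4 to 42). The 5 S2 peaks were fewer than in 72 of them (median 17, range 1 to 55). The prepupa list was in the middle range by this measure, with 26 peaks at the locus against a median of 22 (range 5 to 63). It exceeded 46 windows, equalled 2 and fell short of 30.

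Sequence under peaks gave the same order for embryo, larva and S2. Embryonic peaks covered 61560 bp of the locus, or 17.6% of it, more than in 66 of the other windows (median 40428 bp). Larval peaks covered 7615 bp (2.18%), less than in 71 windows (median 18814 bp). S2 peaks covered 5773 bp (1.65%), less than in 69 windows (median 22276 bp). Prepupal peaks covered 13979 bp (3.99%), which was less than in 51 windows (median 16749 bp). The prepupal peaks of the locus were thus about as many as elsewhere on 3R but took up less sequence. These ranks are descriptions and carry no p-value.

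**Figure D2:**
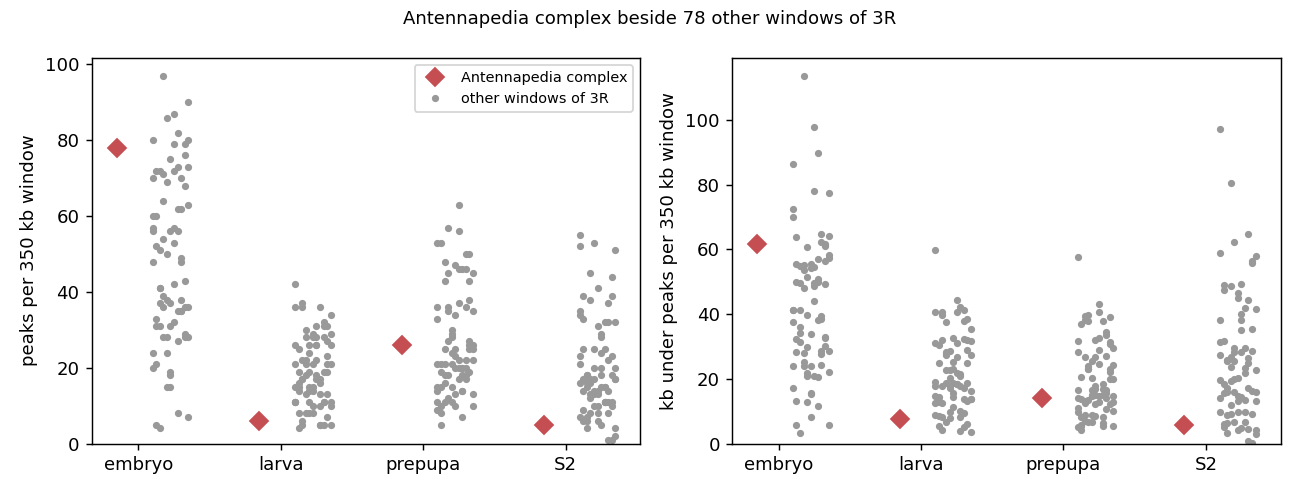
Number of peaks (left) and kb of sequence under peaks (right) in the Antennapedia complex (red diamonds) and in each of the 78 other 350 kb windows of 3R (grey points), for the 4 lists. The red diamonds stand high among the grey points for the embryo list (78 peaks), near the bottom for the larva (6) and S2 (5) lists, and in the middle for the prepupa list (26).

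By number of peaks, the larva and S2 lists were poorer relative to the embryo list at the locus than in nearly every other window. There were 0.0769 larval peaks for each embryonic peak at the locus, against a median of 0.412 over the other windows, and 77 of the 78 windows had a higher ratio. For S2 cells the ratio was 0.0641 at the locus against a median of 0.421, and 76 windows were higher. For prepupae it was 0.333 against 0.571, and 67 windows were higher. By sequence under peaks, the prepupa list was low as well. It had 0.227 bp for each embryonic bp at the locus, against a median of 0.452, and 3 windows were as low. For larvae the locus had 0.124 against a median of 0.515, with 1 window as low. For S2 cells it had 0.0938 against 0.591, with 3 windows as low. The lists differ in length, and the embryo list is the longest. With the same number of widest peaks taken from each list, the locus held 28 embryonic, 6 larval, 13 prepupal and 5 S2 peaks. The larval ratio was then 0.214 at the locus against a median of 0.913, and again 1 window was as low. These ratios were computed after the counts had been seen. The place of the prepupa list among the windows changed with list length: 34.6% of windows then had fewer prepupal peaks than the locus, against 59.0% with the full lists.

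**Figure D3:**
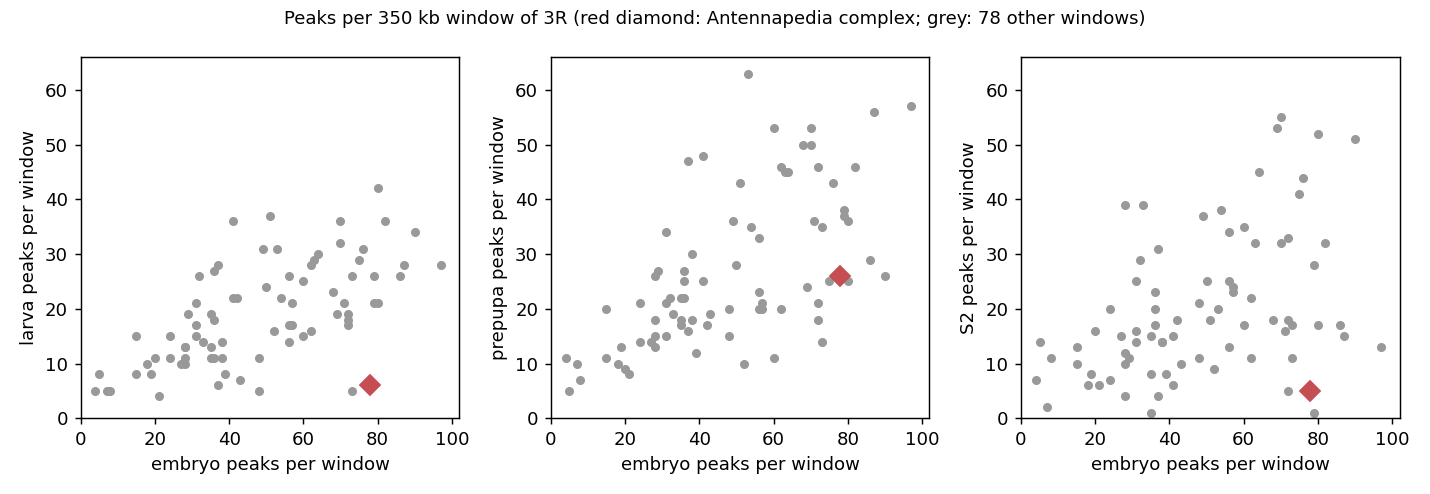
Peaks per 350 kb window in larvae, prepupae and S2 cells (vertical axes) against embryonic peaks in the same window (horizontal axes). The red diamond is the Antennapedia complex and the 78 grey points are the other windows of 3R. In the larval panel the locus lies at the bottom right, and 1 of the 78 grey points has a lower ratio of larval to embryonic peaks.

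Windows with more embryonic peaks than the locus were well filled in larvae. The 9 windows of 3R with more embryonic peaks than the locus held between 79 and 97 of them, and between 21 and 42 larval peaks, with a median of 28. The 6 larval peaks of the Antennapedia complex lay outside that range. Its 26 prepupal peaks were near the low end of the 25 to 57 in those windows, and its 5 S2 peaks fell within their wide range of 1 to 52. Windows with slightly fewer embryonic peaks than the locus varied. Those with 76, 75 and 73 held 31, 29 and 26 larval peaks, but another with 73 (12280001 to 12630000) held 5. The neighbouring windows differed from the locus. The 350 kb before lab held 29 embryonic, 19 larval, 27 prepupal and 11 S2 peaks, and the 350 kb after Antp held 56, 14, 23 and 13 in the same order. The locus therefore had more embryonic and fewer larval and S2 peaks than either neighbour.

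Peaks at the locus were of ordinary or small width. The median was 490.5 bp in embryos (range 280 to 6934), against 539.5 bp for embryonic peaks on the rest of 3R. It was 732 bp in larvae (359 to 4217) against 772 bp, and 369 bp in prepupae (231 to 1780) against 504 bp. Only the S2 list had wider peaks at the locus, with a median over 5 peaks of 1291 bp (389 to 2290) against 732 bp. The lists reach down to different widths: genome-wide, the smallest embryonic peak has 280 bp, the smallest larval one 320 bp, the smallest prepupal one 220 bp and the smallest S2 one 340 bp. Of the 26 prepupal peaks at the locus, 6 were narrower than any larval peak in the genome, and so were 13 of the 78 embryonic ones.

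The widest peaks of all lists met at the same place, near the middle of the complex. In embryos the widest peak was 6934 bp long (2640082 to 2647015), number 34 of 15372 in the whole list by width, and next to it lay one of 1504 bp (2647292 to 2648795). In larvae the widest was 4217 bp (2644732 to 2648948). In prepupae it was 1780 bp (2644801 to 2646580), and in S2 cells 2290 bp (2644979 to 2647268). The second embryonic peak by width measured 4241 bp (2586086 to 2590326) and the third 3990 bp (2795570 to 2799559). In larvae the next were 874 bp (2588383 to 2589256) and 753 bp (2795957 to 2796709), inside those embryonic peaks. The S2 list followed with 1371 bp (2647571 to 2648941) and 1291 bp (2588054 to 2589344). The prepupa list followed with 1221 bp (2637707 to 2638927) and 972 bp (2647765 to 2648736).

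Along the locus, embryonic peaks were found in all of the 7 bins of 50 kb, with 7 to 18 peak midpoints in each. The 2 bins nearest the Antp end, from 250 to 350 kb, held 18 and 14. The bin from 150 to 200 kb had the fewest midpoints, 7, but the most sequence under embryonic peaks, 13381 bp. That bin was also the richest in every other list, where larval peaks covered 4928 bp, prepupal peaks 6503 bp and S2 peaks 3661 bp. It held 2 larval, 8 prepupal and 2 S2 midpoints. In the 100 kb nearest lab the embryo list had 9 and 10 midpoints per bin and the prepupa list 2 and 1, and the larva and S2 lists had 0 in both bins. In the bin from 200 to 250 kb there were 10 embryonic midpoints and 1 prepupal one, and again 0 in larvae and S2 cells.

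**Figure D4:**
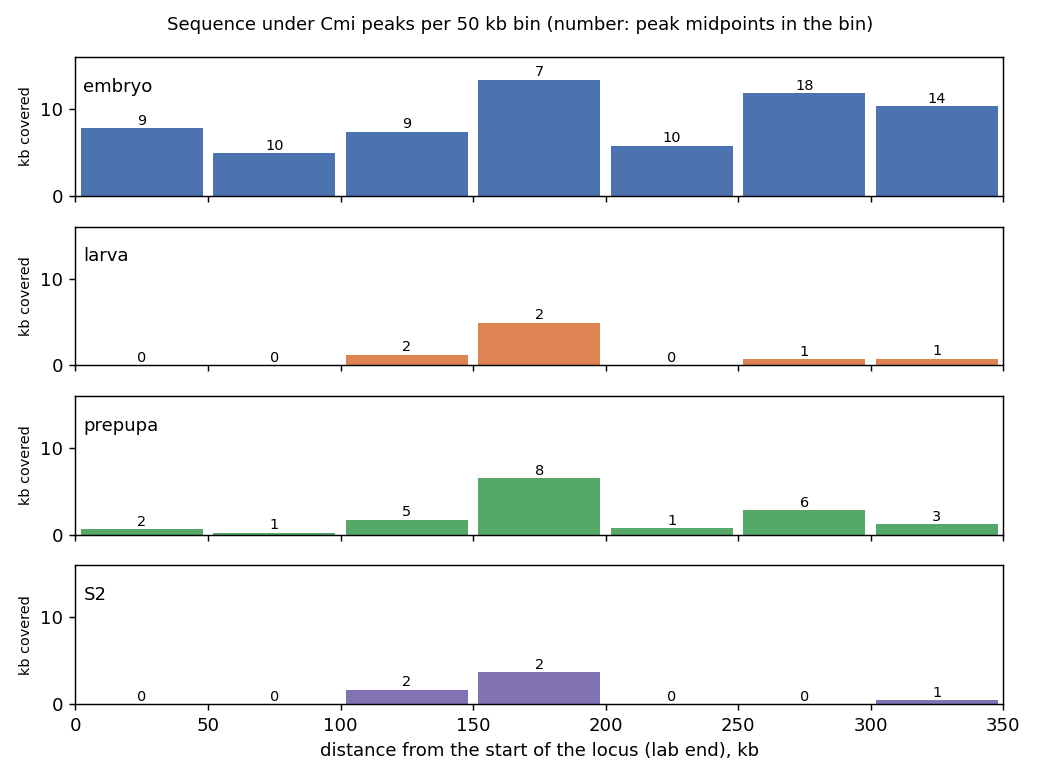
Sequence under peaks in kb (bars) in the 7 bins of 50 kb from the lab end (left) to the Antp end (right), 1 panel per list on a common scale, with the number of peak midpoints printed above each bar. The bin from 150 to 200 kb has the tallest bar in all 4 lists.

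Long stretches of the complex had no larval or S2 peak, which 6 and 5 peaks over 350 kb must leave. Such stretches were not measured in other windows. At the locus the longest in larvae was 108 kb, from the lab end to 2588382, and in S2 cells 147 kb, from 2648942 to 2796073. The longest in prepupae was 47.2 kb (2504627 to 2551830). Embryonic peaks left no gap over 25.2 kb, the longest running from 2648796 to 2673956. Of it, the 25008 bp from 2648949 onwards were free of peaks in all lists. It starts at the edge of the widest peaks, so the richest and the emptiest stretch of the locus adjoin. Embryonic peaks were often close together: 61.0% of the 77 gaps between neighbours at the locus were at most 3 kb, against 66.5% on 3R as a whole. The largest group of embryonic peaks no more than 3 kb apart had 8 members over 13.9 kb near the Antp end (2790594 to 2804532). A group of 7 over 8.07 kb (2774681 to 2782749) had 0 larval and 0 S2 peaks and 1 prepupal peak. A group of 5 over 8.70 kb at the lab end (2482711 to 2491406) had 0 in all 3 other lists.

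All larval and S2 peaks of the complex and 19 of the 26 prepupal peaks overlapped an embryonic one, while 63 of the 78 embryonic peaks had no counterpart in another list. For the 6 larval peaks the share was 100% (exact binomial 95% interval 54.1 to 100), against 71.1% of larval peaks on the rest of 3R. For the 5 S2 peaks it was 100% (47.8 to 100), against 62.3%, and for the prepupal peaks 73.1% (52.2 to 88.4), against 56.8%. All 3 intervals include the value of the rest of 3R. They cover counting error over peaks, and neighbours along the arm are not independent of each other. The shares depended on peak width. With every peak set to 500 bp around its midpoint, 50% of the larval peaks overlapped an embryonic one, against 54.2% on the rest of 3R, and 40% of the S2 peaks did, against 43.6%. These are 3 of 6 and 2 of 5 peaks, and their intervals (11.8 to 88.2 and 5.27 to 85.3) include the values elsewhere. For prepupal peaks the share was 50% (29.9 to 70.1), against 39.2%.

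Seen from the embryo list, a smaller share of peaks was met at the locus than elsewhere on 3R. These shares are bound by the counts, since 6 larval and 5 S2 peaks can meet only few of 78 embryonic peaks. They are therefore not a result separate from the low larval and S2 counts. A larval peak overlapped 7 of the 78 embryonic peaks (8.97%, 3.68 to 17.6), against 29.8% of embryonic peaks on the rest of 3R. A prepupal peak overlapped 15 (19.2%, 11.2 to 29.7), against 26.6%, and an S2 peak 4 (5.13%, 1.41 to 12.6), against 28.8%. The prepupal interval includes the value of the rest of 3R. Any of the other lists met 15 (19.2%), against 44.7%, so the remaining 63 embryonic peaks were found in embryos alone. With all lists cut to an equal number of their widest peaks, 21.4% of the 28 embryonic peaks overlapped a larval peak, against 51.9%, and 14.3% overlapped an S2 peak, against 46.6%. The 15 peaks with a counterpart had a median width of 726 bp, against 450 bp for the 63 without. On the rest of 3R these medians were 877 bp and 428 bp.

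Between larva and prepupa, sharing at the locus was uneven, as were the counts. All 6 larval peaks overlapped a prepupal peak (100%, 54.1 to 100, against 67.6% on the rest of 3R), but 8 of the 26 prepupal peaks overlapped a larval one (30.8%, 14.3 to 51.8, against 60.8%). S2 peaks were met by 3 of the 6 larval peaks (50%, against 53.8%) and by 5 of the 26 prepupal peaks (19.2%, 6.55 to 39.4, against 44.1%). In the other direction, 4 of the 5 S2 peaks overlapped a larval peak (80%, against 49.5%) and 4 a prepupal peak (80%, against 40.8%). The shares of prepupal peaks met are bound by the counts, since 6 larval and 5 S2 peaks can meet only few of 26. They are not a result separate from the low larval and S2 counts. Counting any other list, 6 of 6 larval, 19 of 26 prepupal and 5 of 5 S2 peaks were shared at the locus, against 94.1%, 79.1% and 73.1% on the rest of 3R. By sequence, 93.9% of the larval, 71.4% of the prepupal and 88.0% of the S2 base pairs at the locus lay under embryonic peaks, against 62.1%, 53.8% and 49.0%. These shares rest on few peaks: 1 larval peak held 4217 of the 7615 larval bp, and 1 region 3661 of the 5773 S2 bp. Embryonic peaks also covered more of the locus (61560 bp) than of the median window (40428 bp).

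Merging all overlapping or touching peaks gave 83 regions at the locus. They followed an almost fully nested order, but most had an embryonic peak alone. Such regions numbered 63 (75.9%, 65.3 to 84.6, against 45.7% of the 4587 regions on the rest of 3R). A further 7 had embryonic and prepupal peaks, 3 had embryonic, larval and prepupal peaks, and 3 had peaks in all 4 lists (3.61%, 0.752 to 10.2, against 8.96%). The other 7 regions were prepupal alone (8.43%, 3.46 to 16.6, against 9.53%). No region combined lists in any other way, so every S2 region was also larval, every larval region prepupal, and every larval or S2 region embryonic. This rests on 6 regions with larval and 3 with S2 peaks, and holds for merged regions only. The S2 peak from 2590230 to 2590618 itself overlapped an embryonic peak but no larval or prepupal one. The nested combinations thus took in 76 of the 83 regions (91.6%, 83.4 to 96.5), against 62.0% on the rest of 3R, where all 15 possible combinations occurred. Of the 76, 63 were embryo alone, which counts as nested by definition, and the excess lay there (75.9% against 45.7%). The other nested combinations differed in both directions and gave no clear excess together. Embryo with prepupa made up 8.43%, against 3.12%. Embryo with larva and prepupa made up 3.61%, against 4.21%, and all 4 lists 3.61%, against 8.96%. Regions without an embryonic peak were 7 of 83 at the locus, against 26.5% elsewhere. This grouping was made after the regions had been seen. It depends on peak width. With every peak set to 500 bp, 15 of 90 regions lay outside the nested combinations, 10 of them prepupal alone and 5 in combinations not found at the locus at full width.

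The 3 regions with a peak in all 4 lists held 4 of the 78 embryonic peaks, 3 of the 6 larval, 9 of the 26 prepupal and all 5 S2 peaks. Of the base pairs of the peaks at the locus, they held 26.9% of the embryonic, 76.7% of the larval, 40.7% of the prepupal and 100% of the S2 ones. The other windows of 3R had a median of 5 such regions, and 52 of the 78 had more than 3, 10 had as many and 16 had fewer. The shares of peaks and base pairs in such regions were not computed for the rest of 3R. Direct overlap with all 3 other lists is a narrower measure. It held for 5.13% (embryo), 50% (larva), 19.2% (prepupa) and 80% (S2) of locus peaks, against 13.9%, 31.4%, 28.0% and 29.7%. Only the embryonic interval (1.41 to 12.6) leaves out the value of the rest of 3R. The embryonic share is bound by the 6 larval and 5 S2 peaks, so it is not a result separate from their low counts.

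The largest of these regions lay from 2640082 to 2648948 (8867 bp), centred 165 kb from the lab end. Embryos had 2 peaks there with 8438 bp in all, larvae 1 with 4217 bp, prepupae 4 with 3964 bp and S2 cells 2 with 3661 bp. Larval peaks began at 2644732 and S2 peaks at 2644979, so both occupied the part of the region nearer to Antp, and the 2 prepupal peaks nearer to lab lay under the embryonic peak alone. All 4 lists had in common 1602 bp from 2644979 to 2646580 and 972 bp from 2647765 to 2648736. On the lab side, beyond 1 embryonic and 1 prepupal peak, was a region shared by embryo, larva and prepupa (2637417 to 2638927), which held the second prepupal peak by width.

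Another region common to all lists lay from 2586086 to 2590618 (4533 bp), 108 kb from the lab end. It had 1 embryonic peak of 4241 bp, 1 larval peak of 874 bp, 3 prepupal peaks with 1119 bp and 2 S2 peaks with 1680 bp. The lists shared 354 bp from 2588383 to 2588736 and 305 bp from 2588952 to 2589256. There 2 prepupal peaks overlapped 1 larval peak and ran past it, 1 on each side. The last such region was near the Antp end, from 2795570 to 2799559 (3990 bp), 318 kb from the lab end. A single embryonic peak spanned it, with 753 bp under 1 larval, 602 bp under 2 prepupal and 432 bp under 1 S2 peak. The common stretch was 305 bp long, from 2796201 to 2796505. In all 3 regions each other list covered less sequence than the embryo list. The other peaks lay under embryonic ones, with exceptions among larval and S2 peaks. In the regions at 108 and 165 kb, larval or S2 peaks ran past the Antp-side edge of the embryonic peaks. In the largest region they also ran into the gap between the 2 embryonic peaks.

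**Figure D5:**
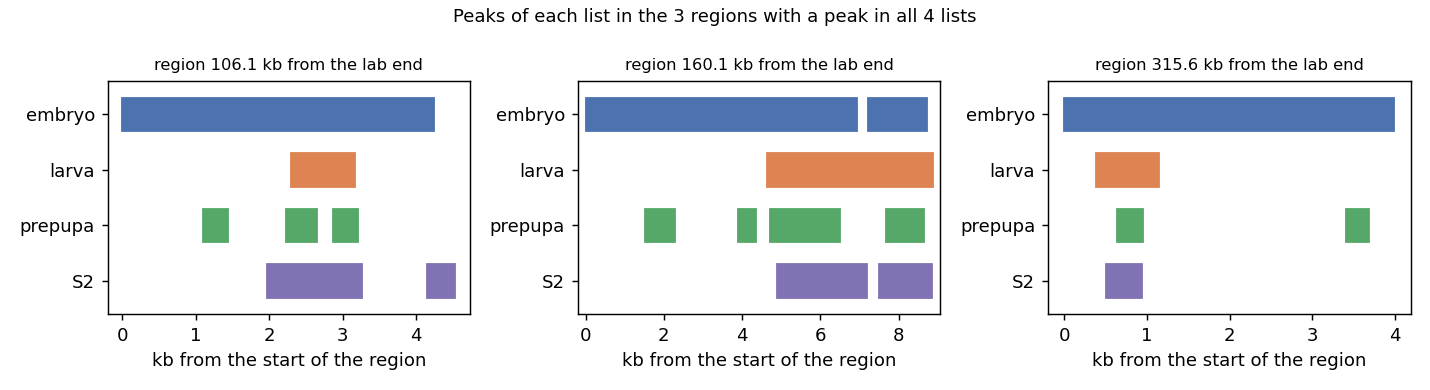
Peaks of each list (blocks, to scale) in the 3 regions with a peak in all 4 lists, in kb from the start of each region with lab to the left. From left to right the embryonic blocks cover 4241, 8438 and 3990 bp, and the blocks of the other lists are shorter and mostly lie under them.

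Regions with embryonic, larval and prepupal peaks but no S2 peak were small. They lay from 2594115 to 2594616 (502 bp), from 2637417 to 2638927 (1511 bp) and from 2733649 to 2734504 (856 bp). The 7 regions of embryo and prepupa alone were between 376 and 913 bp long and were spread from 24.5 to 347 kb. Of these, 5 lay 194 kb or more from the lab end.

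Of the prepupal peaks, 7 had no counterpart in any list. They measured 236 to 921 bp, and their distance to the nearest embryonic peak was 47 to 8991 bp with a median of 617 bp. For 4 of them it was at most 1 kb. Gaps between neighbouring embryonic peaks of the locus, a different measure, had a median of 1550 bp and reached 25161 bp. How near other positions of the locus lie to an embryonic peak was not computed. The widest of the 7 prepupal peaks, from 2748757 to 2749677 (921 bp), ended 47 bp before an embryonic peak. The most isolated, from 2617204 to 2617559 (356 bp), lay 8991 bp from any other list. The widest embryonic peak without a counterpart measured 2330 bp (2760636 to 2762965) and was 2806 bp from the nearest peak of another list. Larvae and S2 cells had 0 peaks without a counterpart at the locus.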

How the data were processed

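Positions were used as the authors deposited them, in 3 columns (chromosome, start, end) with no height or score. Per the submitters' processing notes, the tools were BWA and MACS2 and the build dm3. Neither versions nor threshold, pooling or use of the inputs is stated in the labels, and the 3 input libraries were not analysed here. Starts were converted to count from 1. Peaks that overlapped the locus by at least 1 bp were taken as members. The 78 other windows were tiled along 3R in steps of 350 kb up to the highest peak end in any list. Sharing required 1 bp in common, and shares carry exact (Clopper-Pearson) 95% intervals. Gene names and order come from the RefSeq table of Release 6, where all 12 names sought were found. No test was made, because each group in the series has 1 library and the number behind the embryo list is not given in the sources used here. Regions named are the 3 widest peaks per list, all regions of 4 lists, the widest unshared peaks and the longest gaps. Members and lists were chosen with earlier results of these data known. Overlap counts were checked on simulated data and with bedtools 2.31.1. Python 3.11.15, numpy 2.4.6, scipy 1.17.1 and matplotlib 3.10.9 were used.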

Additional observations from a re-analysis of the deposited data

How the results depend on the processing

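Without depth, replicates or peak scores, these values depend on list length and on how signal is divided into peaks. No paired analysis was possible because each group in the series has 1 library. Moving the bounds by 25 kb or requiring peaks wholly inside changed no count by more than 1.5 times. Peaks wider than their list's median numbered 33 (embryo), 2 (larva), 9 (prepupa) and 3 (S2) at the locus, fewer by construction. They gave 8337 bp covered in prepupae, 1 region in all 4 lists and 28 in embryos alone. Then 75.6% (embryo), 0% (larva) and 26.9% (prepupa) of windows had fewer peaks than the locus, against 88.5%, 7.69% and 59.0% before, and 21.8% had less covered by prepupal peaks. Equal numbers of widest peaks gave 28 embryonic and 13 prepupal peaks, median widths of 925 bp (embryo) and 700 bp (prepupa), 20 regions in embryos alone and 34.6% of windows with fewer prepupal peaks. With 500 bp peaks, 38544 bp (embryo), 3000 bp (larva) and 2500 bp (S2) were covered, 61.5% of windows had less covered in prepupae, 50% of larval, 50% of prepupal and 40% of S2 peaks overlapped the embryo list, and 1 region had all 4 lists. Against windows of all main arms, 15.5% had fewer S2 peaks and 23.5% less S2 coverage. Windows with as few peaks per embryonic peak numbered 5 for prepupae with equal lists, 5 for prepupae with wide peaks (11 with the full lists), 6 for S2 cells with wide peaks (2 with the full lists) and 0 for larvae with wide peaks (1 with the full lists). With 70 kb bins the richest embryonic bin was the one from 280 kb. The causes were not tested.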

Other observations

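A single other window of 3R had as few larval peaks per embryonic peak as the Antennapedia complex. It runs from 12280001 to 12630000 and held 73 embryonic, 5 larval, 14 prepupal and 11 S2 peaks, or 0.0685 larval peaks for each embryonic one. Larval peaks covered 3973 bp there and embryonic peaks 50056 bp. The second Hox cluster of the fly, the bithorax complex, also lies on 3R. Whether this window takes in part of it was not determined here, since no dm3 gene positions were used.

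In S2 cells 2 other windows had as few peaks per embryonic peak. The window from 6330001 to 6680000 held 79 embryonic, 21 larval, 38 prepupal and 1 S2 peaks, and the one from 15080001 to 15430000 held 35, 11, 22 and 1. For prepupae, 11 windows were as low as the locus by number of peaks, and 3 by sequence under peaks.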
